A study of Rattus norvegicus with 14 samples.

Results

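The 8 libraries described here came from 4 male wild-type rats, from the lumbar dorsal root ganglia (levels L2-L5), sampled 8 weeks after an operation on one hindlimb. In that limb the extensor digitorum longus, a small muscle of the lower leg, had been grafted onto the saphenous nerve, which carries sensation from the skin. The ganglia of the other hindlimb, which was not operated on, were the control, so each of rats D, C, G and H gave 1 surgical and 1 control library. They were chosen as the libraries whose titles give 8 weeks, paired by the rat's letter: 8 of the 14 libraries and 4 of the 7 pairs of the series, the other 3 pairs (rats A, B and E) having been taken at 6 weeks. All rats of the series carried a graft, and no sham operation or nerve cut without a graft was analysed here, so the effect of the graft and that of the surgery cannot be told apart. The saphenous nerve is a branch of the femoral nerve, and ganglia of this range also hold neurons of other nerves, so a library averages over neurons with and without a grafted axon. Strain, age and whether the ganglia of the 4 levels were pooled in equal amounts were not given in the sources used here.

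A dorsal root ganglion holds the cell bodies of sensory neurons, each wrapped in satellite glia, with Schwann cells along the axons and with vessels, fibroblasts and macrophages between them. When a peripheral axon is cut, its neuron switches on transcription factors such as Atf3, Sox11 and Jun, and makes the neuropeptides galanin and VIP, which uninjured sensory neurons express little. Neurons with different tasks carry different gene sets: peptidergic nociceptors make Calca and Tac1, non-peptidergic nociceptors of the skin make Mrgprd and P2rx3, and muscle proprioceptors make Pvalb and Runx3. Hox genes mark position along the spine, and those of the higher-numbered groups are expressed further towards the tail.

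Neuropeptide genes of injured neurons and Hox genes recur in the results below, and the sequence before the start of 4 of them is shown. It covers 250 bases, from RefSeq on the GRCr8 build. Capitals mark TGACG, the half-site of the cyclic AMP response element, and TATAAA, the TATA box, searched on both strands. Vip lies at chr1:44470230-44470479 on the plus strand, Gal at chr1:210084573-210084822 on the minus strand, Hoxd10 at chr3:80001697-80001946 and Hoxd11 at chr3:79992144-79992393, both on the plus strand.
Vip: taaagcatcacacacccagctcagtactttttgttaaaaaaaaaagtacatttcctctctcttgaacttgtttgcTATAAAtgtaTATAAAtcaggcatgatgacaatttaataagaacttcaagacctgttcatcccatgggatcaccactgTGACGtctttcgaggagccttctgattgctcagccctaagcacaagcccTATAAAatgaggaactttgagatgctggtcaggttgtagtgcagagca
Gal: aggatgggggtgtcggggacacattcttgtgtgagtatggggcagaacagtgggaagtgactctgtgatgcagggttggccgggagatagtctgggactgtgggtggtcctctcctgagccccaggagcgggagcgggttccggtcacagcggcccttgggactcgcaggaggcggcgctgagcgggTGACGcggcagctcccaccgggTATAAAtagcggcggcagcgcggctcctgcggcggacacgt
Hoxd10: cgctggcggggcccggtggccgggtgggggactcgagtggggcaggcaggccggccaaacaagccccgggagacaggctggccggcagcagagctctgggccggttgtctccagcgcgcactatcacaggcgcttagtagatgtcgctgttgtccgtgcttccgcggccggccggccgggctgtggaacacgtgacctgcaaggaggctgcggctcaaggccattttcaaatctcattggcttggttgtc
Hoxd11: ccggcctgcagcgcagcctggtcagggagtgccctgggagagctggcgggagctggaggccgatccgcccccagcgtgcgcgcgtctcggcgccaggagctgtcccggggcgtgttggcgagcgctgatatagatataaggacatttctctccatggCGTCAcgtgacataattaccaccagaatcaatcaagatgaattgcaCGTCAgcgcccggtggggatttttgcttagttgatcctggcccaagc
The half-site was found 1 time each in Vip and Gal, 97 and 63 bases before the start, 2 times in Hoxd11 on the other strand, and not in Hoxd10. The TATA box was found 3 times in Vip and 1 time in Gal, 48 bases before the start of Vip at the nearest and 41 before that of Gal, and in neither Hox gene. Among all 33469 rat promoters of that length, 18.2% held the half-site and 12.9% the TATA box, so a match is common, and it describes the letters, not a site in use. Hoxd10 and Hoxd11 are neighbours on chromosome 3, and Hoxc10 and Hoxc11, described further on, belong to another Hox cluster.

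The libraries held between 21590793 and 28237574 estimated counts. Neuronal genes were present in each: the mean level of 16 sensory neuron markers lay between 8.27 and 9.40 in log2 CPM, the counts scaled to library size, on a log2 scale. The tissue around the neurons differed far more. A library's level of 29 skeletal muscle markers was 9.21 in the surgical library of rat C and 7.58 in the control library of rat H, against 0.71 to 2.53 in the other 6. Acta1, the actin of muscle fibres, stood at 8560 TPM (the share of transcripts after allowing for gene length) in the first of these and 1633 TPM in the second, and at 7.24 to 27.7 TPM elsewhere. The surgical library of rat C differed in other ways too. Its level of 18 myelinating Schwann cell markers was 5.21, against 6.20 to 7.06 in the other 7 libraries, and its level of 22 macrophage markers was 5.63, against 4.04 to 5.0. Genes of bone cells, named after their values were seen, were high in it: Bglap, which codes for osteocalcin, was at 6691 TPM there and at 13.9 to 169 TPM elsewhere, and Ctsk, the protease of osteoclasts, at 775 TPM against 10.5 to 39.7. Blood cell transcripts were uneven as well. The level of 14 neutrophil markers differed between the sides, surgical minus control, by 3.33 in rat C, 2.57 in rat G, -1.32 in rat D and -0.87 in rat H. For 9 red blood cell markers the same differences were 3.15, 2.11, -0.83 and -0.99.

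**Figure D1:**
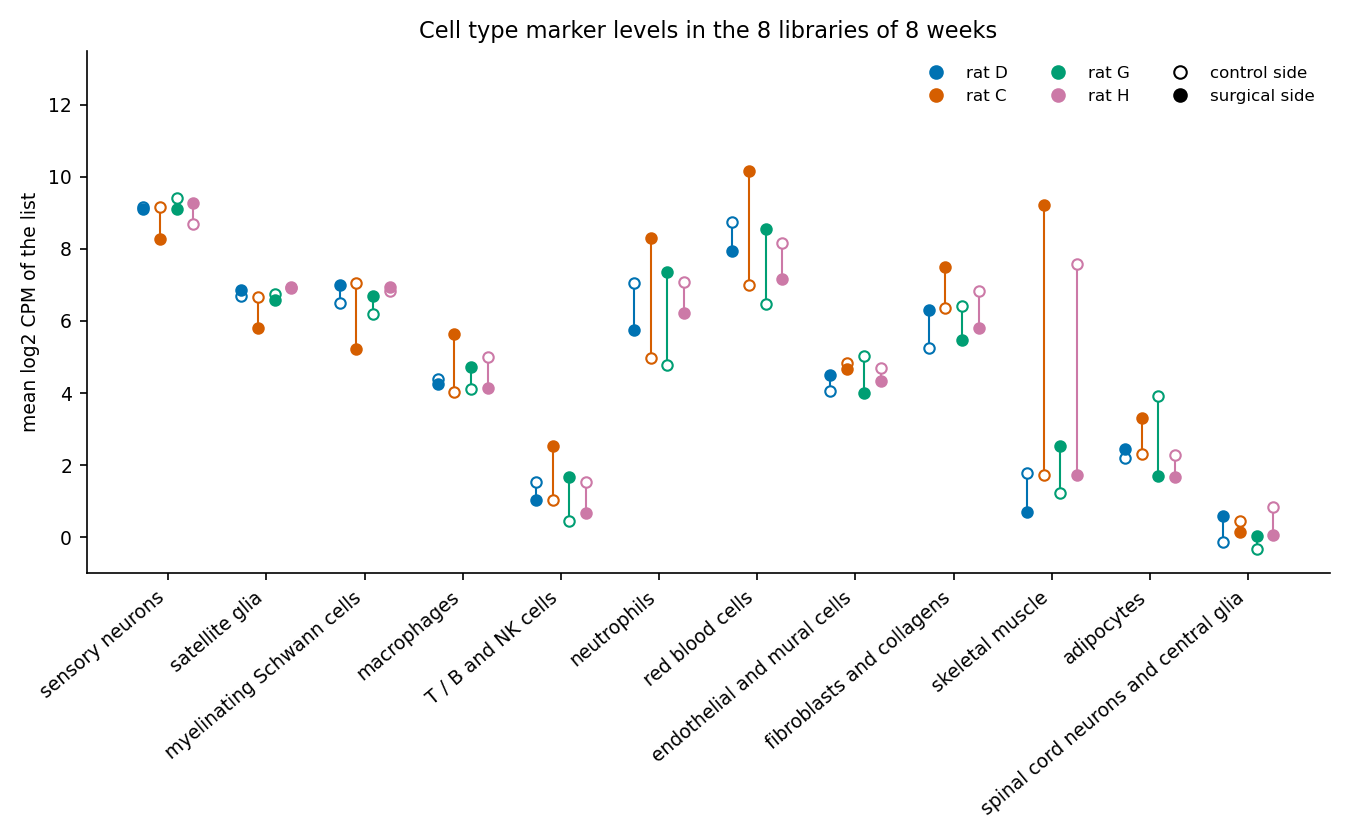
Mean log2 CPM of 12 lists of cell type markers (x axis) in the 8 libraries of 8 weeks, with open circles for the control side, filled circles for the surgical side, and a line joining the sides of a rat, coloured by rat. The surgical library of rat C and the control library of rat H stand out in skeletal muscle, at 9.21 and 7.58, and the side differences of neutrophils and red blood cells have opposite signs in rats C and G and in rats D and H.

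With 4 rats none of the 12 marker levels could pass a test between the sides at 0.05, whatever its values. The smallest p of a two-sided exact sign-flip test is here 2 of 16 sign patterns, which is above 0.05. These tests gave p between 0.5 and 1, adjusted p between 0.9 and 1 over the 12 lists. They cannot decide whether the levels differ, and no conclusion is drawn from them. The neuron level differed by -0.16 (SD 0.61, n = 4), from -0.89 in rat C to 0.59 in rat H. The muscle level differed by 0.47 (SD 5.54, n = 4), from -5.85 in rat H to 7.48 in rat C. Without rat C the neuron level differed by 0.09 and the muscle level by -1.87. In bulk ganglia, fewer cells of a type and less RNA per cell cannot be told apart, and this holds for every level below.

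The comparison of the sides asked how transcript levels differ between ganglia of the grafted and the unoperated limb. With each rat as its own control, edgeR's quasi-likelihood test passed 0 of 17035 genes (0%) at an adjusted p under 0.05, and the smallest adjusted p was 1. At an unadjusted p under 0.05 there were 82 genes higher (0.481%) and 98 lower (0.575%) on the surgical side, 180 in all. DESeq2 on the same counts passed 4 genes, all higher (0.0235%): Hoxd10, Stac2, Hoxc11 and Mmp3. Every adjusted p of edgeR was therefore 1, also where it is not repeated below, and the log2 differences are descriptions, each with its standard error (SE). The median over all genes tested was 0.006, with 51.0% of them positive.

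The pairs disagreed with each other across the transcriptome. The standard deviation of a pair's differences over the 17035 genes was 0.55 in rat D, 0.72 in rat G, 0.75 in rat H and 1.36 in rat C, all on the log2 scale. A difference of 2-fold or more was seen for 7.23% of genes in rat D, 11.6% in rat G, 9.65% in rat H and 32.5% in rat C. Spearman's rho between the differences of 2 rats, across genes, was 0.38 for C with G, -0.46 for C with H, and between -0.23 and -0.02 for the other 4 combinations. Genes are not independent replicates, and tissue content is shared by many of them, so no p is given. A gene was higher on the surgical side in all 4 pairs for 451 genes (2.65%) and lower in all 4 for 711 (4.17%), so 38.8% of the genes with 1 sign were higher. That split depended on the scale: in log2(TPM + 1), 206 genes were higher and 886 lower (18.9% higher), and the median of all genes was then -0.102 in the limma fit. With DESeq2's size factors the counts were 473 and 640 (42.5% higher). Overlap of the sides, read from TPM below, leaned the same way: 36 genes were higher without overlap (0.211%) and 274 lower (1.61%). A lack of overlap was thus more common among lower genes.

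Of the genes of the neuronal response to axon injury, none passed in edgeR, and the pairs of rats D, G and H often differed from that of rat C. Vip, the gene of vasoactive intestinal peptide, stood at 0.121, 0.226, 0.109 and 0.159 TPM in the control libraries of rats D, C, G and H, and at 3.68, 0.137, 4.57 and 7.39 TPM in their surgical libraries. The surgical libraries of rats D, G and H were thus all above every control, and that of rat C lay within the control range. The log2 difference was 4.27 (SE 1.33; edgeR adjusted p = 1), and 5.33 (SE 1.11) without rat C. These are low levels: the controls held 3 to 5 counts of Vip each and the 3 high surgical libraries 92 to 173. Stac2, which codes for an adaptor protein that binds voltage-gated calcium channels, followed the same rats. Its controls were at 0.327, 0.397, 0.212 and 0.213 TPM and its surgical libraries at 2.82, 0.534, 4.6 and 7.49 TPM, in the same order of rats. The 2 sides did not overlap, though rat C differed by only 0.83 in log2 CPM against 3.04 to 4.75 in the other rats. The log2 difference was 3.46 (SE 0.87; edgeR adjusted p = 1), with an adjusted p of 0.0146 in DESeq2, and it was 4.22 (SE 0.78) without rat C.

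Gal, the gene of galanin, a peptide that dampens transmission in the dorsal horn, was at 7.04, 28.6, 26.9 and 11.2 TPM in the controls of rats D, C, G and H and at 36.7, 8.70, 56.0 and 61.9 TPM on the surgical side. It was higher in D, G and H and lower in C, and the sides overlapped. Its log2 difference was 1.26 (SE 0.62), or 1.98 (SE 0.31) without rat C. The values without rat C, here, for Vip and Stac2 above and for Atf3 below, were quoted after its pair was seen to differ. Their larger size and smaller SE follow from that choice. For Stac2, leaving out another rat gave 2.92 to 3.58. Atf3, a transcription factor that marks injured neurons, was at 13.7, 6.62, 7.11 and 8.38 TPM in controls and at 28.1, 3.15, 27.1 and 34.5 TPM in surgical ganglia, again with rat C the exception. The difference came to 1.16 (SE 0.45), or 1.69 (SE 0.28) without rat C. Sox11, a transcription factor of axon regrowth, was higher in all 4 pairs, at 1.53, 0.362, 1.64 and 0.712 TPM in controls and 1.80, 0.468, 2.33 and 3.28 TPM on the surgical side, a log2 difference of 0.95 (SE 0.39). Most of that came from rat H, whose pair differed by 1.96 against 0.32 to 0.75 in the others, and without rat H the difference was 0.59.

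Gadd45a, a gene of the response to cell stress, was higher in all 4 pairs by 0.21 to 0.73 in log2 CPM. It was at 61.4, 59.5, 48.9 and 53.8 TPM in controls and 67.0, 69.6, 74.1 and 91.5 TPM in surgical ganglia, with no overlap between the sides. It differed by 0.56 (SE 0.15). Cckbr, a receptor for cholecystokinin, was higher by 1.92 (SE 0.74) at no more than 1.2 TPM in any library. Cacna2d1, the calcium channel subunit that gabapentinoid drugs bind, was higher in all 4 pairs, by 0.09 in rat C to 0.98 in rat H (0.49, SE 0.47). Ankrd1, which striated muscle also expresses, was at 3.86 TPM in the muscle-rich surgical library of rat C and at 0.215 to 0.707 TPM in the other 7. Npy, the neuropeptide Y gene, was the 1 gene of the list that was lower in all 4 pairs. It was at 166, 180, 151 and 228 TPM in controls and 39.8, 77.8, 112 and 146 TPM on the surgical side, with no overlap, a log2 difference of -0.95 (SE 0.45).

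**Figure D2:**
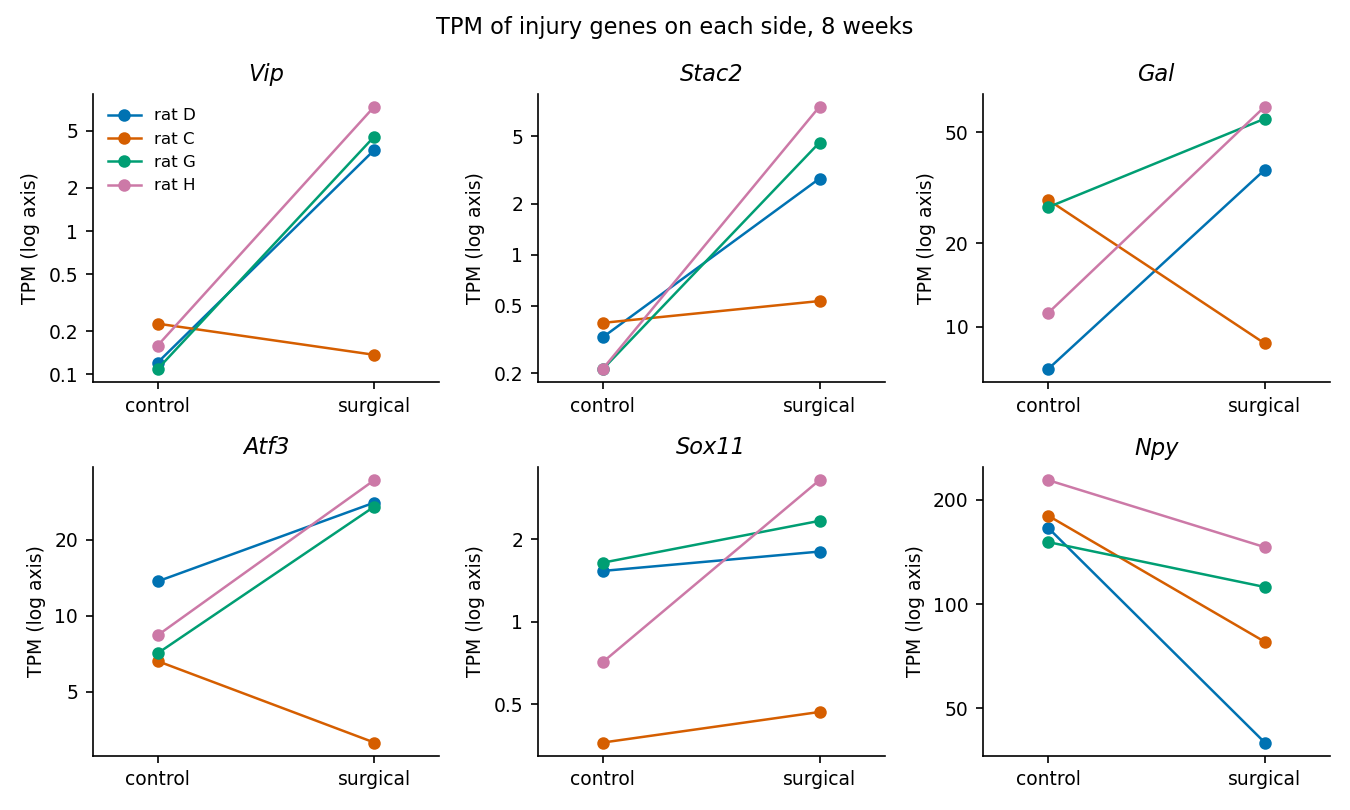
TPM (log axis) of 6 genes in the control and surgical ganglia of each rat at 8 weeks, with a line joining the sides of a rat. Vip, Gal and Atf3 are higher on the surgical side in rats D, G and H and lower in rat C, Stac2 and Sox11 are higher in all 4 rats, and Npy is lower in all 4.

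Of 35 genes listed for axon injury and regeneration, 32 were tested, 22 had a positive log2 difference, 10 a negative one, and the median was 0.25, or 0.44 without rat C. Sprr1a, Il6 and Gpr151 were not tested, since their counts were too low. In all 4 pairs 5 of the 32 were higher (Sox11, Gadd45a, Cacna2d1, Ankrd1 and Cckbr) and 1 was lower (Npy), beside the 2.65% and 4.17% of all genes. In rats D, G and H, 16 of the 32 were higher in each, where 8.93% of all genes were higher in these 3 pairs and 9.19% lower. That choice of rats was made after the values of rat C had been seen. Genes of low level could pass the filter on low counts through the surgical side alone, as Vip did among these libraries. No conclusion about the list is therefore drawn from the counts of 5 and 16. Among the 16 were also Jun at 0.21 (SE 0.19) and Reg3b at 1.6, while Gap43, the growth cone protein gene, had -0.21 (SE 0.36) and Csf1, the macrophage growth factor that injured neurons release, 0.21 (SE 0.30). The surgical library of rat C, which lacked most of these differences, is also the one with muscle and bone transcripts and with the lowest neuron level, 8.27; the part of its tissue content in the result was not tested. With the neuron level as a covariate the differences were 4.45 for Vip, 3.63 for Stac2, 1.3 for Gal and 1.17 for Atf3. The neuron level does not measure muscle or bone transcripts. With the muscle level as a covariate the difference was 3.53 for Stac2, and the median of the list was 0.26. No covariate covered bone transcripts, and the part of muscle and bone content in the result was not tested.

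Genes of non-peptidergic nociceptors had lower values on the surgical side, though none passed the test. All 13 listed genes were tested, 13 had a negative log2 difference, the median was -0.74, and 8 were lower in all 4 pairs, beside 4.17% of all genes. Mrgprd, the receptor that defines these skin neurons, was at 25.6, 25.1, 46.4 and 23.8 TPM in the controls of rats D, C, G and H and at 13, 8.21, 12.2 and 18.5 TPM in the surgical ganglia. Every surgical library was below every control in TPM, as for 1.61% of all genes, against 0.211% with the opposite order. The log2 difference was -1.09 (SE 0.48; edgeR adjusted p = 1). P2rx3, an ATP-gated channel of the same neurons, was at 115, 139, 167 and 112 TPM in controls and 85.4, 37.7, 74.4 and 110 TPM on the surgical side. The sides did not overlap, but in rat H they differed by only -0.18, and the log2 difference of -0.74 (SE 0.55) was not far beyond its error. The log2 difference was -1.03 (SE 0.43) for Lpar3, a receptor for lysophosphatidic acid, and -0.72 (SE 0.27) for Gfra2, the neurturin co-receptor; each was lower in all 4 pairs, without overlap, with an adjusted p of 1 in edgeR. Ptgdr, the prostaglandin D receptor, was at 2.83, 3.77, 7.32 and 3.03 TPM in controls and 0.999, 0.626, 0 and 1.58 TPM on the surgical side. The smallest differences were those of Rasgrp1, -0.34, and Casz1, -0.38.

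The neuron level itself was lower in the surgical library of rat C, so the mean level of the 13 genes was also taken relative to that of the 16 sensory neuron markers. Relative to it the surgical minus control difference was -0.33 in rat D, -0.27 in rat C, -1.41 in rat G and -0.87 in rat H, a mean of -0.72 (SD 0.53, n = 4). The same value averaged -0.11 (SD 0.35, n = 4) for 14 peptidergic nociceptor genes and -0.27 (SD 0.15, n = 4) for 10 genes of itch neurons. It averaged -0.16 (SD 0.43, n = 4) for 12 genes of cool-sensing neurons and low-threshold C fibres. For 19 genes of proprioceptors and touch neurons it was 0.11 (SD 0.19, n = 4). That last list holds Pvalb, which muscle fibres also express, and Spp1, also listed for macrophages. In rat C its relative mean was 0.34, while its median difference was -0.88, beside -0.89 for the neuron level. The peptidergic list shares Th and Ret with the cool-sensing list, Nefh with the list of proprioceptors and touch neurons, and Scn9a with the neuron markers. Its mean log2 difference was -0.24 against a median of -0.40. Without rat C the median log2 difference of the non-peptidergic list was -0.54, and without rats C and G it was -0.29. The control library of rat G had the highest level of Mrgprd, 46.4 TPM, and of Gfra2, 51.3 TPM.

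Among genes of other small-diameter neurons none passed the test. Mrgprx3, a receptor of itch neurons, was at 18.7 to 27.1 TPM in controls and 6.64 to 14 TPM in surgical ganglia (-1.0, SE 0.32), and with Sst and Cysltr2 it was 1 of 3 of the 10 tested itch genes that were lower in all 4 pairs, beside 4.17% of all genes. The itch list had a median of -0.38, or -0.18 without rat C. Of 12 genes of cool-sensing neurons and low-threshold C fibres, 4 were lower in all 4 pairs, again beside 4.17%. These 4 were Slc17a8, the vesicular glutamate transporter of these fibres, Tafa4, Cdh9, and Gfra2, which the non-peptidergic list also counts. The median of the 12 genes was -0.47, or -0.22 without rat C. Peptidergic nociceptor genes had a median of -0.40, with 0.17 in rat D, -1.10 in rat C, -0.36 in rat G and -0.13 in rat H. Without rat C it was -0.11. Of these 14 genes 12 had a negative value. In all 4 pairs 0 were higher and 2 lower, beside 2.65% and 4.17% of all genes. Trpv1, the heat and capsaicin channel, was at 38.6 to 72.7 TPM in controls and 19.2 to 34.8 TPM on the surgical side, without overlap (-0.63, SE 0.45). Calca, which encodes the peptide CGRP, was higher in rat D by 0.17 and lower in the other 3 rats (-0.40, SE 0.43). Genes of proprioceptors and touch neurons, the fibres that normally supply muscle among them, had a median of -0.19, which turned to 0.09 without rat C. In all 4 pairs 0 of 19 were higher and 1 was lower, Necab2, a share near the 4.17% of all genes. Pvalb, which muscle fibres also express, was at 969 TPM in the muscle-rich surgical library of rat C and at 150 to 218 TPM in the other 7 libraries. Receptors of related families, such as the Mrgpr genes, and Calca with Calcb have similar sequences, so the split of reads between them is uncertain.

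Hoxd10 and Hoxc11 passed the threshold in DESeq2, higher on the surgical side, and no Hox gene passed in edgeR. Of 11 Hox genes of groups 10 to 13 listed, 10 were in the tables and 6 passed the filter on low counts, and since a gene could pass through the higher side alone, their count supports no statement about the list. Hoxd10 was at 0.322, 0.610, 0.230 and 0.126 TPM in the controls of rats D, C, G and H and at 0.697, 4.85, 3.83 and 1.22 TPM on the surgical side. No surgical library overlapped a control, and rat D had the smallest pair difference, 1.05 in log2 CPM. The log2 difference was 3.00 (SE 0.66; edgeR adjusted p = 1), with an adjusted p of 0.0146 in DESeq2. Hoxd11 held 2, 0, 3 and 0 counts in the controls and 7, 41, 32 and 11 in the surgical libraries (4.10, SE 0.94). Hoxc11 held 0, 1, 0 and 6 counts in controls and 7, 169, 105 and 7 on the surgical side, so that rats C and G carried its difference of 4.90 (SE 1.66), and rat H differed by 0.13. Hoxc10, the most abundant of them, was at 6.00, 6.24, 3.23 and 6.56 TPM in controls and 8.96, 10.3, 7.96 and 8.95 TPM in surgical ganglia, without overlap (0.89, SE 0.25). Hoxa11 was higher in all 4 pairs with at most 11 counts in a library, and Hoxd12 was lower in rat D and higher in the other 3 (0.12, SE 0.45).

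Hox genes of groups 4 to 9 mark positions further towards the head. Of 17 of them that were tested, 6 had a positive log2 difference, the median was -0.19, 1 was higher in all 4 pairs (Hoxd9, 0.56, SE 0.19) and 1 was lower (Hoxa4, -0.28, SE 0.24), beside 2.65% and 4.17% of all genes. The median was -1.02 in rat C alone and turned to 0.10 when that rat was left out. Hoxc9, the neighbour group of Hoxc10, was at 8.52, 7.67, 9.03 and 10.4 TPM in controls and 11.6, 4.91, 8.64 and 9.39 TPM on the surgical side (0.03, SE 0.25). Hoxd10, Hoxd11 and Hoxc11 were highest in rats C and G, the rats whose surgical libraries also exceeded their controls in neutrophil and red blood cell markers, by 3.33 and 2.57 and by 3.15 and 2.11. The part of blood cell content in these differences was not tested. Without rats C and G the log2 difference was 2.04 for Hoxd10 and 0.48 for Hoxc10, against 3.00 and 0.89 with them, and Hoxd11 no longer passed the filter on low counts. Genes of a Hox cluster lie close together and share transcripts, so the split of reads between neighbours is uncertain.

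**Figure D3:**
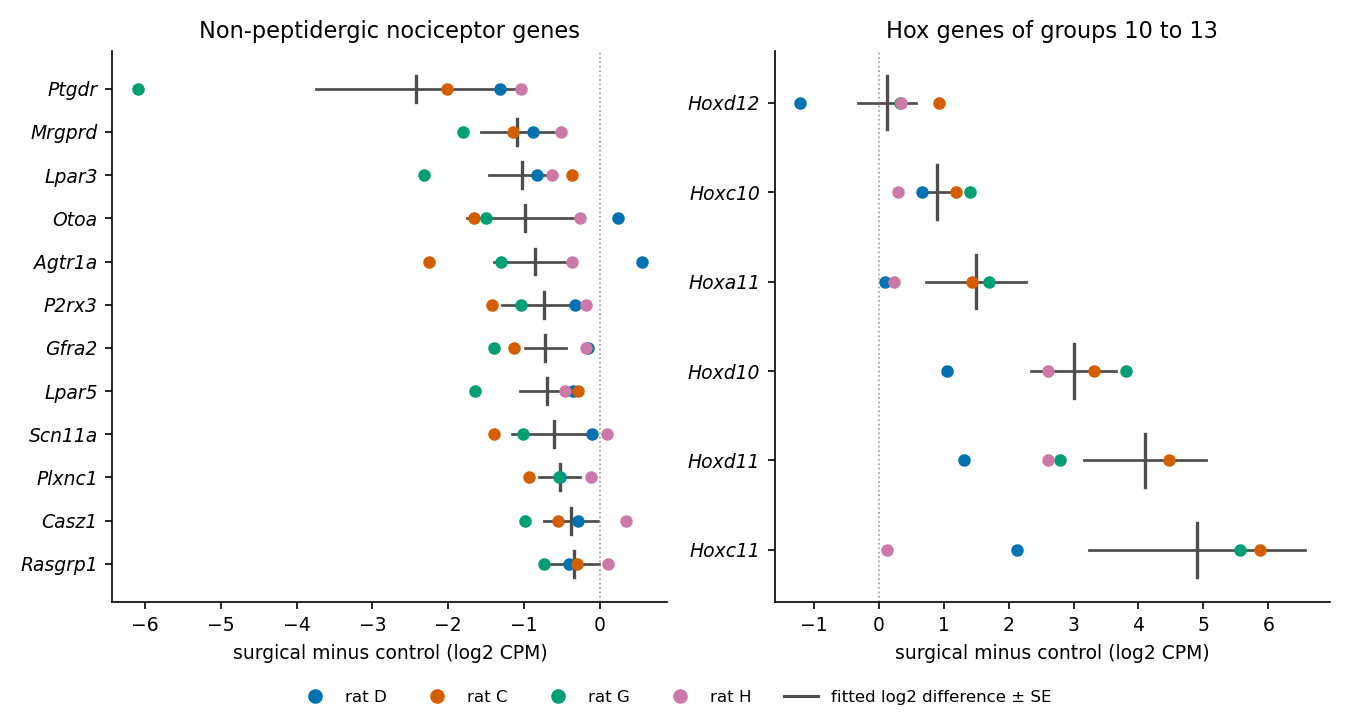
Surgical minus control log2 CPM of each rat (coloured points) for 12 of the 13 non-peptidergic nociceptor genes and the 6 tested Hox genes of groups 10 to 13, with the fitted log2 difference (vertical bar) and its SE (horizontal line). All 12 fitted differences on the left lie below 0. The Hox genes shown are those that passed the filter on low counts, which they could do through the higher side alone; among them the Hoxc11 points of rats C and G lie far from those of rats D and H.

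Among genes that have a symbol and average 1 TPM or more, the 10 with the smallest p in each direction among those with 1 sign in all 4 pairs were named. Being chosen on these differences, they illustrate what 4 rats have in common and are not tested further. Those higher were Hoxd10, Stac2, Gadd45a and Hoxc10, described above, LOC100360761, and Cryba4, Dipk2a, Ssc5d, Bcl6 and Srd5a2. The sides did not overlap in TPM for 6 of them, where 0.211% of all genes were higher without overlap. As the genes were chosen on these same differences, that contrast is no separate result. Cryba4, a crystallin gene, was at 2.94, 1.5, 0.801 and 1.39 TPM in controls and 3.46, 4.94, 3.26 and 3.31 TPM on the surgical side (1.42, SE 0.41). Bcl6, a transcriptional repressor, was higher by 0.24 to 1.02 (0.57, SE 0.18), and Dipk2a by 0.28 to 0.48 (0.41, SE 0.12), the narrowest spread of the 10. Srd5a2, the steroid 5-alpha reductase gene, held 249 and 171 counts in the surgical libraries of rats C and G and at most 10 in each of the other 6, so its 3.87 (SE 1.22) rested on these 2 rats. LOC100360761 was at 1.95, 9.38, 16.9 and 6.24 TPM on the surgical side and at no more than 1.46 TPM in a control.

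The 10 lower genes were Skap1, Cpm, Fxyd2, Grxcr1, Tmem106a, P2ry1, Slc16a12, Cpne7, Rgs10 and Mmp17, with log2 differences between -1.38 and -0.51. The sides did not overlap for 9 of them, where 1.61% of all genes were lower without overlap. They too were chosen on these differences, so that contrast is no separate result. Fxyd2, the gamma subunit of the sodium pump and one of the most abundant neuronal transcripts here, was at 1052, 1366, 1915 and 1271 TPM in controls and 843, 560, 713 and 825 TPM in surgical ganglia. Every surgical value lay below every control, a log2 difference of -0.84 (SE 0.22). Rgs10, a regulator of G protein signalling, was at 228, 302, 366 and 285 TPM in controls and 163, 143, 203 and 206 TPM on the surgical side, with pair differences of -0.39, -0.59, -0.72 and -0.62 (-0.58, SE 0.18). It had the same sign in the 3 rats of 6 weeks. Cpm, the carboxypeptidase M gene, was at 4.91 to 8.32 TPM in controls and 2.99 to 4.10 TPM in surgical ganglia (-0.78, SE 0.20). P2ry1, a receptor for ADP, differed by -0.51 (SE 0.15) and Grxcr1 by -1.38 (SE 0.37). Skap1, an adaptor protein gene known from T cells, was at 1.62, 1.6, 2.61 and 2.24 TPM in controls and 0.955, 0.616, 0.881 and 0.893 TPM on the surgical side. Its difference of -1.12 (SE 0.28) stood beside a median of 0.37 for 19 T, B and NK cell genes. That median was made of -0.38 in rat D, 1.24 in rat C, 1.07 in rat G and -0.90 in rat H, and without rat C it was -0.14.

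**Figure D4:**
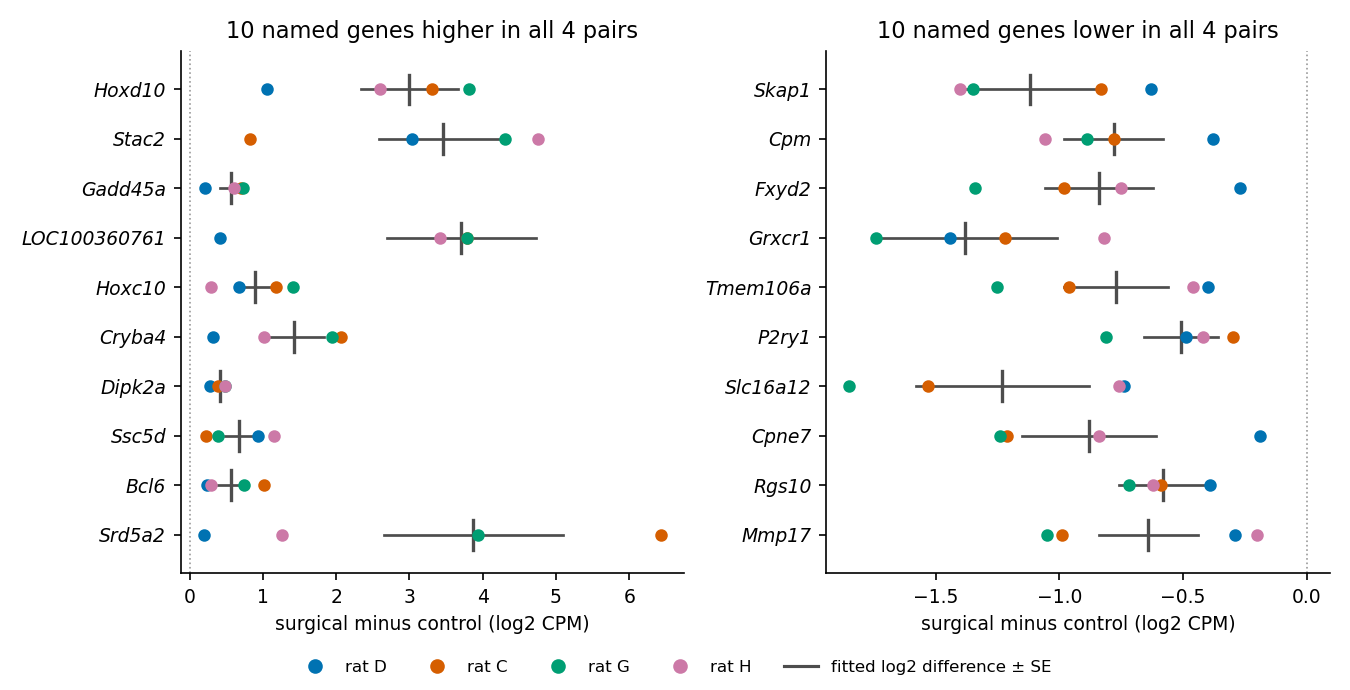
Surgical minus control log2 CPM of each rat (coloured points) for the 10 named genes higher and the 10 named genes lower in all 4 pairs, with the fitted log2 difference (vertical bar) and its SE (horizontal line). Rgs10 and Dipk2a have the closest points, while in Srd5a2 rat D lies at 0.19 and rat C at 6.44.

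Mmp3, the matrix protease stromelysin, fell outside that rule because of its low level and is named because DESeq2 passed it. It held 3, 1, 3 and 6 counts in the controls and 18, 14, 26 and 31 in the surgical libraries. Among these libraries it could pass the filter on low counts only through the surgical side. The pair differences were alike, 2.17, 2.46, 2.51 and 1.99, and the log2 difference was 2.92 (SE 0.39; edgeR adjusted p = 1), with an adjusted p of 0.0239 in DESeq2. Pde6b, a phosphodiesterase subunit of photoreceptors, was at 0.324, 0.0227, 0.0727 and 0.0399 TPM in controls and 0.783, 0.069, 1.5 and 1.95 TPM on the surgical side (3.33, SE 0.80), higher in all 4 pairs with overlapping sides.

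Glial, immune and ion channel lists showed how much 1 rat could set a median. The 18 myelinating Schwann cell genes had a median of -0.16 over the 4 rats, with -1.94 in rat C, and without rat C the median was 0.41. In each of rats D, G and H, rats chosen after rat C had been seen, 14 of the 18 were higher, beside 8.93% of all genes. Satellite glia had -0.24, and 0.09 without rat C. For repair Schwann cells, the state that Schwann cells take on after a nerve injury, the median was 0.04, with Clcf1 the only 1 of 15 tested genes higher in all 4 pairs, beside 2.65% of all genes; without rat C the median was 0.19. Macrophage genes had a median of 0.23, made of 1.63 in rat C, 0.48 in rat G, -0.06 in rat D and -0.93 in rat H, and no gene of the list had 1 sign in all 4. Without rat C that median was -0.15. Cd68, the lysosomal protein of macrophages, was at 22.8, 8.5, 10.6 and 18.4 TPM in controls and 10.8, 71.6, 18.6 and 10.3 TPM on the surgical side, so the direction depended on the rat. Of the cytokine genes, Ccl19, a chemokine that draws lymphocytes and dendritic cells, was lower in all 4 pairs, from -0.18 in rat D to -2.87 in rat H (-1.95, SE 0.68).

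Potassium channel genes had a median of -0.27 and 2 of 31 had a positive value. In all 4 pairs 0 of the 31 were higher and 4 lower, beside 2.65% and 4.17% of all genes. Taking the list relative to the neuron markers left -0.03 in rat D, -0.31 in rat C, -0.04 in rat G and -0.16 in rat H. Kcnd3, a channel of the A-type current, differed by -0.81 (SE 0.40), and Kcnk2, a background channel, by -0.41 (SE 0.22). Sodium and calcium channel genes had a median of -0.24, Stac2 being far above the rest of that list. Opioid, GABA and other inhibitory receptors had a median of -0.29, with Oprk1, the kappa opioid receptor, at -0.92 (SE 0.42). Of these 22 genes 0 were higher and 3 lower in all 4 pairs, beside the same 2.65% and 4.17%. Without rat C these medians were -0.01, 0.04 and 0.03. All 20 cholesterol synthesis genes had a negative value, from -0.39 to -0.11, but their median of -0.26 was 0.02 without rat C. Nuclear genes of oxidative phosphorylation had a median of -0.01 over 38 genes. In all 4 pairs 0 of them were higher and 1 lower, beside 2.65% and 4.17% of all genes.

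**Figure D5:**
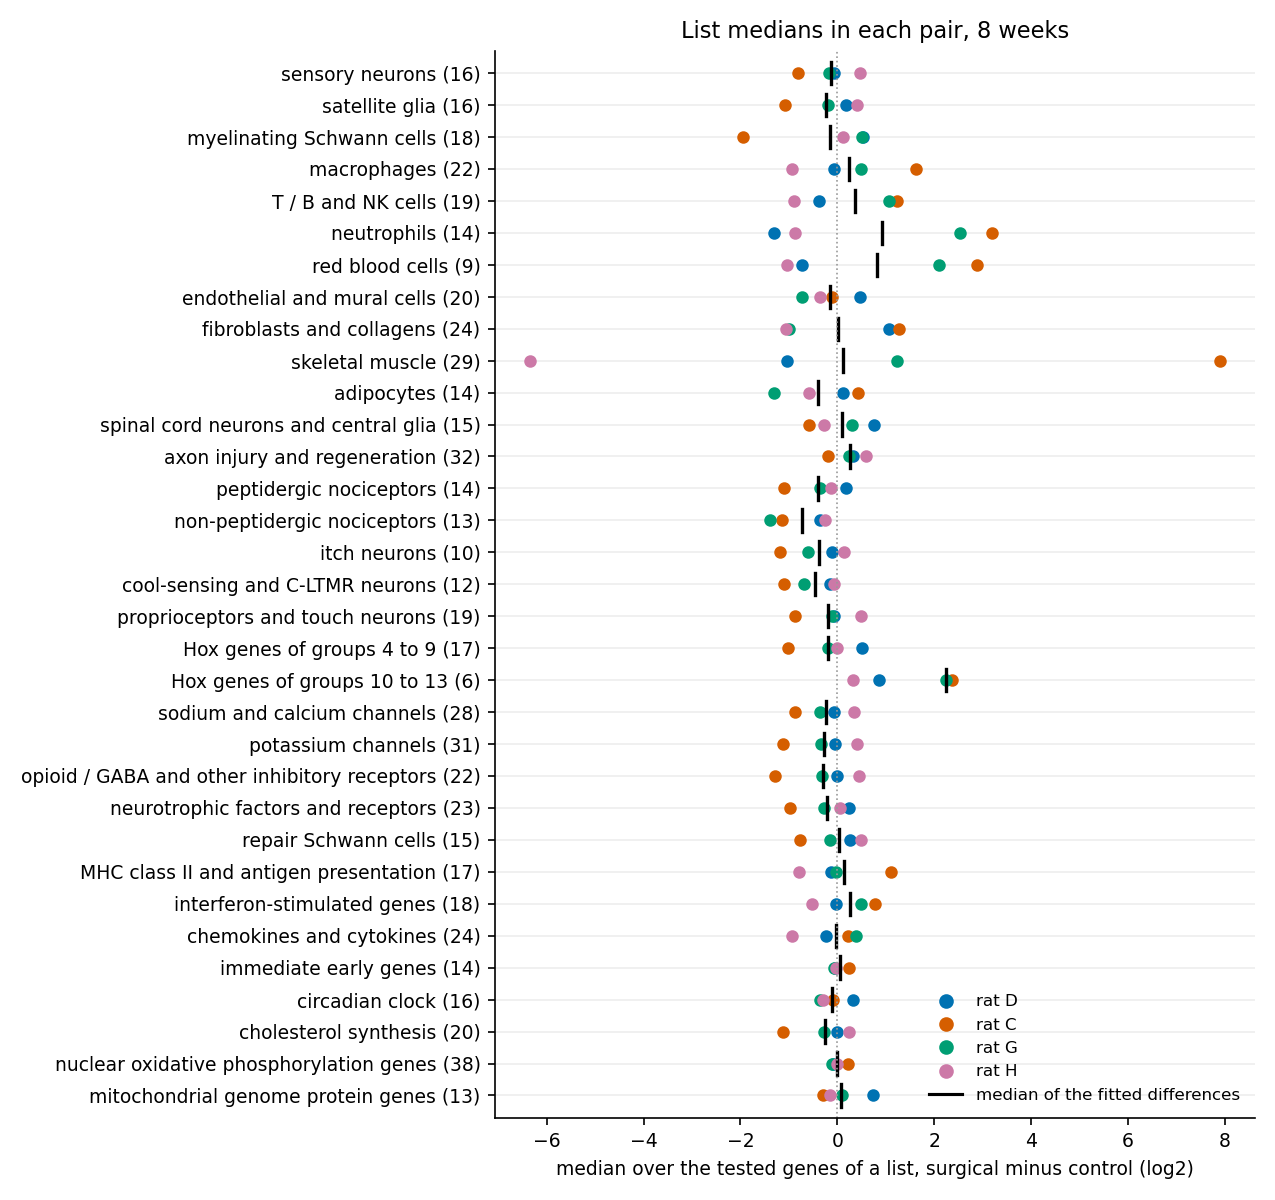
Median surgical minus control difference (log2) over the tested genes of each list, in each rat (coloured points), with the median of the fitted differences (black bar) and the number of tested genes in parentheses. The lists of non-peptidergic nociceptors and of cool-sensing and low-threshold C-fibre neurons, which share Gfra2, have all 4 points below 0. In the second of these rat H lies at -0.07. Skeletal muscle runs from -6.35 in rat H to 7.90 in rat C. The Hox genes of groups 10 to 13 are the 6 that passed the filter on low counts, which the higher side alone could let them do.

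The side difference at 8 weeks was set against that of the 3 rats taken at 6 weeks in the same fit. The times share no libraries, and their side differences in tissue markers were unlike. At 6 weeks the median was 2.32 for genes of spinal cord neurons and central glia, with 14 of 15 positive. For skeletal muscle genes it was 1.2, with 26 of 29 positive. At 8 weeks these medians were 0.09 and 0.11. The part of tissue content in the changes given here was not tested. No gene passed for the change between them (0 of 17035 with edgeR, 0%), and 252 (1.48%) had an unadjusted p under 0.05; DESeq2 passed 5, all with a more positive difference at 8 weeks (0.0294%). Vip differed by 3.75 (SE 1.53) at 6 weeks and Stac2 by 3.22 (SE 0.98), and their change to 8 weeks was 0.52 (SE 1.92) and 0.25 (SE 1.24). For Atf3 the 6-week value was 0.24 (SE 0.49) and the change 0.92 (SE 0.66). Hoxd10 differed by 0.23 (SE 0.71) at 6 weeks, a change of 2.77 (SE 0.96; edgeR adjusted p = 1). Mrgprd differed by -0.12 (SE 0.60) at 6 weeks, with -2.15 in rat A, 0.85 in rat B and 0.60 in rat E, a change of -0.97 (SE 0.77). The non-peptidergic list had a median of -0.12 at 6 weeks, with 6 of 13 genes positive. Rgs10 differed by -0.73 (SE 0.21) at 6 weeks and Fxyd2 by -0.53 (SE 0.26), lower as at 8 weeks. Cpm had 0.32 (SE 0.23) at 6 weeks, a change of -1.10 (SE 0.30).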

How the data were processed

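RNA from rat dorsal root ganglia was sequenced in 14 libraries, 8 of them at 8 weeks. Per the labels polyA RNA was the molecule, but their extraction text names ribosomal depletion. Per the submitters' processing notes reads were handled with FastQC, Trim Galore, Salmon and DESeq2; versions and the genome build were not given in the sources used here. The authors deposited estimated counts per gene, all whole numbers, and TPM per gene from the same quantification. Rats C and D carry exchanged letters in titles and library names on both sides, which leaves the pairs intact; title letters were used. The title of rat C's surgical library calls it replicate 1, and here it is replicate 2.

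The test was that of edgeR 4.0.16 (R 4.3.3) on the estimated counts (filterByExpr with a minimum count of 10, TMM, robust quasi-likelihood fit, two-sided, Benjamini-Hochberg over 17035 genes). The design held the rat as a block and a surgical effect at each time and was fitted to all 14 libraries (5 residual degrees of freedom). The SE is the log2 difference divided by the square root of F. Levels and pair differences are log2 CPM with a prior count of 2; an overlap of the sides was read from TPM. The pairing comes from the animal. Deviations from the side means correlated by -0.09, -0.41, 0.13 and -0.31 within rats D, C, G and H. Between the sides of different rats they correlated by -0.41 to 0.51. Nothing in the labels says whether a library is 1 extraction or several. The script was tested on simulated data.

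The comparison, its gene lists (654 entries in 33 lists, 16 entries not in the tables) and the named genes were chosen with earlier results of these data known. Named genes were the 10 of smallest p in each direction with 1 sign in all 4 pairs and a mean of at least 1 TPM, genes chosen for their role, up to 4 of each list by p, those with the widest range of pair differences, and those with the smallest p between the times; not all are printed, and some genes are not reported here. Alternatives were DESeq2 1.42.0, limma 3.58.1 on log2 TPM, other filters and scalings, covariates, no block, and rats left out.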

Additional observations from a re-analysis of the deposited data

Results flagged for a closer look

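In groups of 4 libraries, 114 were searched for a value far from the other 3, and 14 were found. Chance would flag about 1 in 20 groups if they were independent. These groups share libraries and genes, so that rate is no yardstick for the 14. In 9 of the 14 the value is that of rat C's surgical library. In log2 CPM it had the lowest sensory neuron level (8.27) and myelinating Schwann cell level (5.21) of its side, and the lowest Mmp17 (3.14), Atf3 (2.47), Gap43 (7.10), Tac1 (6.44) and Nefh (11.40), the last the heavy neurofilament gene of large neurons. Its Pvalb was the highest, at 10.02. Its Dipk2a, at 5.07, was the highest of the surgical libraries. In the control library of rat H, skeletal muscle markers (7.58) and Acta1 (10.68) were far above the other controls. The control library of rat G stood apart in adipocyte markers (3.92), Mmp17 (4.77) and Mrgprd (4.67), each the highest of its side.

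Among the 20 genes named for 1 sign in all 4 pairs, 2 had the opposite sign in all 3 pairs at 6 weeks. For Cryba4 the side difference was 2.13 higher at 8 than at 6 weeks (SE 0.62; edgeR adjusted p = 1), and for Mmp17 the change was -0.85; neither change passed.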

How the results depend on the processing

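With edgeR, 0 genes passed at 8 weeks under any alternative run: other scaling, no filter, a filter at 1 CPM, no robust dispersion, only the 8-week libraries, both covariates, the length trend removed, each rat left out in turn, and rats C and H or C and G left out. Without the replicate block it was 0 as well, for the side difference and for its change between the times, so the pairing changed no call. Limma on TPM gave 0, and DESeq2 gave 4 at 8 weeks and 5 for the change. The counts of genes with 1 sign depend on the number of pairs. In 3 pairs, leaving out rat D, C, G or H, 1094, 1522, 1025 and 1667 genes were higher and 2059, 1565, 994 and 2742 lower. The 2 pairs left without rats C and H gave 3363 and 4313, and those without C and G, a choice made after seeing the data, 3567 and 4516. In log2(TPM + 1), 206 were higher. A difference of at least 0.5 in all 4 pairs left 26 higher and 21 lower, among them 2 non-peptidergic nociceptor genes, 2 Hox genes and 0 axon injury genes. The count of axon injury genes higher in every pair was 5 to 16 with 1 rat left out, 17 without C and H, 20 without C and G, and 3 in log2(TPM + 1). With 1 rat left out, the side difference of a marker level changed sign for these lists, whose ranges were -0.41 to 0.09 for sensory neurons, -0.33 to 0.02 for satellite glia, -0.41 to 0.37 for myelinating Schwann cells, -0.14 to 0.68 for macrophages, -0.04 to 0.74 for T / B and NK cells, -0.30 to 0.43 for fibroblasts and collagens, -1.87 to 2.58 for skeletal muscle, -0.87 to 0.21 for adipocytes, -0.26 to 0.25 for spinal cord neurons and central glia. Fibroblast genes gave -0.06 in log2(TPM + 1) and -0.27 without rat D. Such signs lie within the spread of the pairs. Of 51 genes followed, 47 had a value under all 18 settings, and 33 of these kept their sign and 14 did not. Vip, Hoxd11, LOC100360761 and Srd5a2 had values under 11 to 17 settings, with 1 sign in those. With 1 rat left out the ranges of those that turned were -0.40 to 0.12 for Gap43, -0.18 to 0.43 for Csf1, -0.23 to 0.50 for Nefh, -0.49 to 0.23 for Fabp7, -0.37 to 1.11 for Cd68, -0.26 to 0.43 for Cd74, -1.71 to 1.85 for Acta1, -0.09 to 0.01 for Slirp, -0.05 to 0.41 for Rpl39-ps10; Acta1 was -1.05 without rat G. Without rats C and H the reversed values were 0.03 for Gap43, -0.06 for Csf1, 0.12 for Tac1, -0.08 for Runx3, 0.06 for Fabp7, -0.04 for Cd68, 0.04 for Slirp. Without rats C and G they were 0.31 for Gap43, -0.13 for Csf1, 0.05 for Scn10a, -0.19 for Pvalb, 0.32 for Fabp7, -0.98 for Cd68, -0.38 for Cd74, -3.96 for Acta1, -0.35 for Rpl39-ps10. With the neuron level as covariate they were -0.08 for Cd74, -0.11 for Acta1. With the muscle level it was -0.02 for Cd74. With the length trend removed they were -0.08 for LOC103694416, -0.55 for Rpl39-ps10. In limma they were, with 1 TPM added, -0.10 for Cd74, -0.0 for LOC103694416, -0.05 for Rpl39-ps10, and with 0.1 added, -0.10 for Cd74, -0.0 for LOC103694416, -0.05 for Rpl39-ps10. List medians moved by less than 1 SD of the pairs in 588 of 594 alternatives. The cause of these moves was not tested beyond the rats left out. Depth limits Vip, Hoxd11, Hoxc11, Hoxa11 and Mmp3, which had under 10 counts in every control library, and 4 rats with such uneven tissue content limit the rest.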
